A study of Mus musculus with 2 samples.

Results

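The genes described here are 32 enzymes, subunits and carriers of pyruvate entry, the tricarboxylic acid (TCA) cycle and glutamate metabolism. They were taken by name from the gene probes shared by both arrays, with Brp44l and Brp44 as the array's names for Mpc1 and Mpc2. They make up 32 of the 19505 named genes and 55 of the 41174 gene probes. Each of 2 arrays, both of the two-colour Agilent kind, paired C57BL/6N material lacking PKGI (PKGI-/-, called KO) with wild-type littermate material (WT). PKGI is cGMP-dependent protein kinase I, the product of Prkg1. The cultured-cell array compared brown adipocytes differentiated in vitro from preadipocytes of brown fat, and the tissue array compared untreated brown adipose tissue (BAT). Age and sex are not given in the labels. The labels do not say whether the allele was removed in every cell.

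Pyruvate from glycolysis enters mitochondria through the mitochondrial pyruvate carrier. There it is oxidised to acetyl-CoA by the pyruvate dehydrogenase complex, which the Pdk kinases switch off by phosphorylation, or carboxylated to oxaloacetate by pyruvate carboxylase. Citrate synthase starts the cycle from these products, and glutamate enzymes and transaminases feed carbon into it at oxoglutarate and oxaloacetate. Brown adipocytes use the cycle to supply the respiratory chain during heat production, and fat cells use pyruvate carboxylase to refill it when citrate leaves for lipid synthesis.

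The Pcx, Mdh2 and Pdk3 promoters are printed because Pcx was the member furthest below 0 in cultured cells, Mdh2 took opposite signs on the arrays, and Pdk3 was the member furthest above 0 in cultured cells. Mdh2 and Pdk3 were added after their values were seen. The RefSeq table of GRCm38.p6 holds 40 promoters for 30 of the members, each running from 250 bases before to 50 bases after a gene's start. Capitals mark GGGCGG, the GC box bound by Sp1-type factors, or its complement CCGCCC.
Pcx promoter at the upstream start, chr19:4510222-4510521, plus strand: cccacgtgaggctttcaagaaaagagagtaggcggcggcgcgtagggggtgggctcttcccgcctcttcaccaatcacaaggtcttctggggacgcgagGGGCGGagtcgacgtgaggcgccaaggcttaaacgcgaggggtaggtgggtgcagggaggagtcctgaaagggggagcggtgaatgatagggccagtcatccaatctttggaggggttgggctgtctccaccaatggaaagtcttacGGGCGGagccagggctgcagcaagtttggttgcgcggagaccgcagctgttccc
Pcx promoter at the downstream start, chr19:4594069-4594368, plus strand: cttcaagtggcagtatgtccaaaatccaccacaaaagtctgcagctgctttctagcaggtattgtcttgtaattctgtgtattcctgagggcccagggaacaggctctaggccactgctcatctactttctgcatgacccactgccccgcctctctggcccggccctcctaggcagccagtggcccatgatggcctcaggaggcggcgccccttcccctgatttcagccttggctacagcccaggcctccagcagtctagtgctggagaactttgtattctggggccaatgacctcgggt
Mdh2 promoter, chr5:135778399-135778698, plus strand: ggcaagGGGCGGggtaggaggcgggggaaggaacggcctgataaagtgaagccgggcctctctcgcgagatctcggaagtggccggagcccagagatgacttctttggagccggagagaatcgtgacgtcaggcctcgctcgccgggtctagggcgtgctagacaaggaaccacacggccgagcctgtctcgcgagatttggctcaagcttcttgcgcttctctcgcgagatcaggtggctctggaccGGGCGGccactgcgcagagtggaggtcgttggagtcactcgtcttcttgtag
Pdk3 promoter, chrX:93832101-93832400, minus strand: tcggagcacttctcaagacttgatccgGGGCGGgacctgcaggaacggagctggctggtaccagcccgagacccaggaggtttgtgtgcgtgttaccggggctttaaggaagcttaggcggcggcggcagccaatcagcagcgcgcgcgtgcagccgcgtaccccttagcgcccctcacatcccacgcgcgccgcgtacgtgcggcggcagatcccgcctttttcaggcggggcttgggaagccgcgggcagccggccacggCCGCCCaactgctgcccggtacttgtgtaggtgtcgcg
The upstream Pcx promoter holds the GC box at 2 places, positions -151 and -4 from the start, and the downstream one at none. Each motif was searched on both strands. The GC box lay in 25 of the 40 member promoters (62.5%), against 35.7% of all 32851 promoters in the table. Some members have several promoters, and those of Ogdh in part overlap, so the same box can be counted more than once. TCAAGGTCA, the extended site of oestrogen-related receptors, lay in 0 of 40 and in 0.423% of all promoters. AGGTCANAGGTCA, the direct repeat bound by PPAR with RXR, lay in 0 of 40 and in 0.0396% of all promoters. Both motifs are so rare over all promoters that 0 of 40 says little about these genes. GCGCANGCGC, the motif of NRF1, lay in 2 of 40, those of Dld and Sucla2, against 4.60% of all promoters. The NRF1 motif and the GC box were added after the ratios were seen, and none of these matches shows that a factor binds.

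Values are normalized intensities in arbitrary units, and a ratio is the log2 of KO over WT, so that -1 is a 2-fold lower signal in KO. One array per comparison leaves no replicate, so no test was possible, and a fold of 2 or 1.5 only describes these RNA samples. On the BAT array 2.44% of 15623 genes stood 2-fold or more lower in KO and 0.800% 2-fold or more higher, and on the cultured-cell array 4.17% and 2.49% of 15119 genes. These shares depend on the scaling. On the BAT array 2.62% were lower and 4.30% higher without loess, and 6.09% and 8.97% with the scanner software's own ratios. On the cultured-cell array they were 8.24% and 1.28% without loess, and 6.32% and 5.79% with those ratios. Repeated spots of 1 probe differed with an SD of 0.10 over 180 probes in BAT and 0.09 over 189 probes in cultured cells. Probes to different places in 1 member differed with a median SD of 0.13 and 0.19. The loess step removes dye bias that depends on brightness. Without loess, the ratios were instead centred on the median of the gene spots, dim ones included. The median of all genes kept then stood at 0.25 on the BAT array and at -0.26 on the cultured-cell array. Signs given without loess rest on that choice of zero. With loess the all-gene median was 0.00 on both. The members were bright, with a median brightness at the 94.9th percentile of genes on the BAT array and the 87.4th on the cultured-cell array.

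Of 4 Prkg1 probes, the same 2 were well above background in both channels on each array. They read -1.29 and -1.22 on the BAT array, and -0.94 and -2.31 on the cultured-cell array. Another probe was well above background in KO but not in WT on each array, and read 0.005 on the BAT array and 0.17 on the cultured-cell array. Which part of the gene was deleted is not given, so these probes may lie outside it. The samples on each array also differed in sex-linked transcripts. Xist, made from the inactive X chromosome, read 25932 in KO tissue and 123 in WT tissue on its brightest probe, and 182 in KO cells and 6952 in WT cells. The Y-linked gene Eif2s3y was not well above background in KO tissue and stood at 4295 in WT tissue, and it read 7936 in KO cells and 8607 in WT cells. The WT cells thus held both Xist and Eif2s3y, transcripts that cells of a single mouse do not usually make together, and the labels do not say whether cultures of several mice were pooled. In tissue, KO was high in Xist and WT held Eif2s3y, so sex and genotype cannot be told apart there for any member. Pdha1, Idh3g and Pdk3 are the X-linked members. The part of sex in the ratios of these or of other members was not tested on either array.

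Other cell types differed between the samples as well. In cultured cells all 8 adipocyte markers were at least 2-fold lower in KO, with a median of -3.93 and a summed level of 23849 in KO cells and 344048 in WT cells. The brown adipocyte list summed to 2919 in KO cells and 14771 in WT cells, with 4 of 7 at least 2-fold lower and Elovl3 not well above background in KO. Dio2 of that list went the other way, at 0.83, with 238 in KO cells and 134 in WT cells. Macrophage markers summed to 36021 in KO cells and 195704 in WT cells, with 4 of 6 at least 2-fold lower. Smooth muscle and myofibroblast markers summed to 213538 in KO cells and 54579 in WT cells, with 4 of 5 at least 2-fold higher. In tissue all 13 skeletal muscle markers were at least 2-fold lower in KO, with a median of -2.77 and a summed level of 47665 in KO tissue and 272929 in WT tissue. The adipocyte list in tissue had a median of 0.01 and sums of 459806 in KO and 320967 in WT. Of its 8 genes 4 were below 0, and 1, Cfd, was at least 2-fold higher. Cfd read 176378 in KO tissue and 51183 in WT tissue, so it weighs heavily in the sums. The brown adipocyte list in tissue summed to 392493 in KO and 483455 in WT, with Dio2, Elovl3 and Ucp1 at least 2-fold lower and Cidea at least 2-fold higher. In the remaining lists (smooth muscle, fibroblast, macrophage, endothelial and erythroid in tissue, and skeletal muscle, fibroblast, endothelial and erythroid in cultured cells) the only gene past 2-fold was Acta1, at 1.52 in cultured cells. The part of any of these lists in the members' ratios was not tested, and fewer cells of a type and less RNA per cell cannot be told apart in these samples.

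In cultured cells 29 of the 32 members were below 0, against 50.2% of all genes. Their median was -0.66. A 2-fold lower level in KO was reached by 8 members, against 4.17% of all genes, and a 2-fold higher one by 0, against 2.49%. Without loess 19 members were 2-fold lower in KO cells, against 8.24% of all genes, and the members' median was -1.07. At 1.5-fold, 20 members were lower, against 9.58% of all genes, and 1 was higher, against 8.46%. The 8 were Pcx, Idh3a, Mdh2, Brp44, Cs, Pdhb, Idh1 and Dlat. Dlat and Idh1, both at -1.01, lay just past the fold of 2, while Pdha1 at -0.95 and Pdhx at -0.94 lay just short of it. In BAT 23 of the 32 members were below 0, against 49.5% of all genes, but 10 without loess, when 20 were below the all-gene median. The BAT median was -0.36, and 0.13 without loess, which is 0.12 below the all-gene median there. Only Me3 was at least 2-fold lower in BAT, against 2.44% of all genes, and 0 members were at least 2-fold higher, against 0.800%. At 1.5-fold, 13 members were lower in KO tissue, against 7.11% of all genes, and 1, Glul, was higher, against 3.67%. Without loess 1 was lower and 9 were higher, while the all-gene median itself stood at 0.25. The all-gene shares at 1.5-fold without loess are not given here, so those counts cannot be set against 7.11% and 3.67%.

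**Figure D1:**
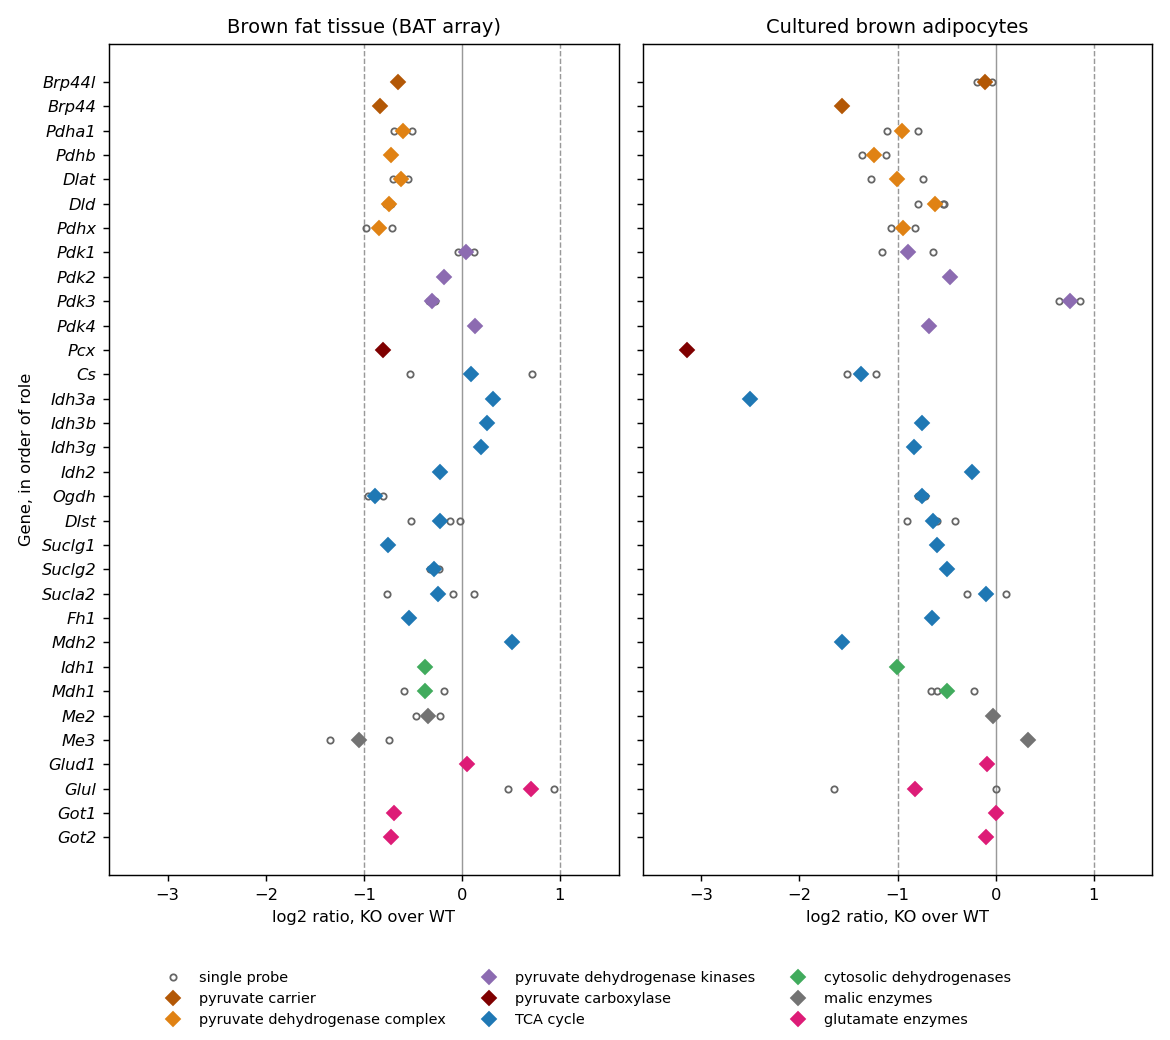
The log2 ratio of KO over WT (horizontal axis) of each of the 32 members (vertical axis, in order of role), in brown fat tissue on the left and cultured brown adipocytes on the right. Coloured diamonds are gene values, open circles single probes, and dashed lines a 2-fold difference. In cultured cells 29 members lie left of 0, with Pcx at -3.15 and Idh3a at -2.50. In tissue the 8 genes of pyruvate entry lie between -0.84 and -0.60 and the 3 Idh3 genes between 0.19 and 0.32, values that shift upwards without loess, when 4 of those 8 lie above 0.

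The pyruvate carrier is a heterodimer of Brp44l (Mpc1) and Brp44 (Mpc2). Brp44 read 19583 in KO cells and 57869 in WT cells, a ratio of -1.56. In tissue it read 26891 in KO and 47907 in WT, a ratio of -0.83. Its partner Brp44l read 11896 in KO cells and 12833 in WT cells, a ratio of -0.11, with both probes between -0.19 and -0.03. In cultured cells the partners thus stood 2.96-fold and 1.08-fold lower in KO. In tissue Brp44l was at -0.66, close to Brp44, though without loess Brp44l stood at 0.06 and Brp44 at -0.08.

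The pyruvate dehydrogenase complex is built from the decarboxylating subunits Pdha1 and Pdhb, the acetyltransferase Dlat, the dehydrogenase Dld, which other complexes share, and the binding protein Pdhx. All 5 were at least 1.5-fold lower in KO cells, and Pdhb and Dlat at least 2-fold. Pdhb read 18335 in KO cells and 43355 in WT cells, a ratio of -1.24, and its probes read -1.37 and -1.12. Dlat read 3304 in KO cells and 6645 in WT cells, a ratio of -1.01, with probes at -1.27 and -0.74. Pdha1 was at -0.95, Pdhx at -0.94 and Dld at -0.62 in cultured cells, so the subunit that other complexes share was the closest to 0. In tissue the 5 lay in a narrow band from -0.84 (Pdhx) to -0.60 (Pdha1), and without loess 3 of them (Pdha1 at 0.07, Pdhb at 0.02 and Dlat at 0.01) were slightly above 0. Pdhx read 1372 in KO tissue and 2463 in WT tissue.

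The 4 kinases that inactivate the complex did not move together. Pdk3 read 4103 in KO cells and 2428 in WT cells, a ratio of 0.76, with probes at 0.65 and 0.86, and was the only member at least 1.5-fold higher in cultured cells. Without loess it stood at 0.34, short of 1.5-fold, and with the scanner software's own ratios Me3 also passed, at 0.79. Pdk1 was at -0.90, Pdk4 at -0.68 and Pdk2 at -0.47 there. Pdk4, the kinase induced by fasting, read 1158 in KO cells and 1851 in WT cells, and 61525 in KO tissue and 55903 in WT tissue. In tissue the 4 kinases lay between -0.31 (Pdk3) and 0.14 (Pdk4), and Pdk2 and Pdk4 changed sign between alternatives. Pdk3 was dim in tissue, at 191 in KO and 237 in WT.

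Pcx makes oxaloacetate from pyruvate and had the lowest ratio of the members in cultured cells. It read 2078 in KO cells and 18456 in WT cells, a ratio of -3.15 or 8.88-fold lower in KO. In tissue it read 15271 in KO and 26632 in WT, a ratio of -0.80, or -0.10 without loess. Its 1 probe lies on chromosome 19 at 4516443 to 4516502, plus strand, in the array file's coordinates, whose genome build the sources used here do not name. Over the alternatives its cultured-cell ratio ran from -3.56 to -3.15. No other probe of Pcx is on the array, so its ratio has no check by a different probe.

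**Figure D2:**
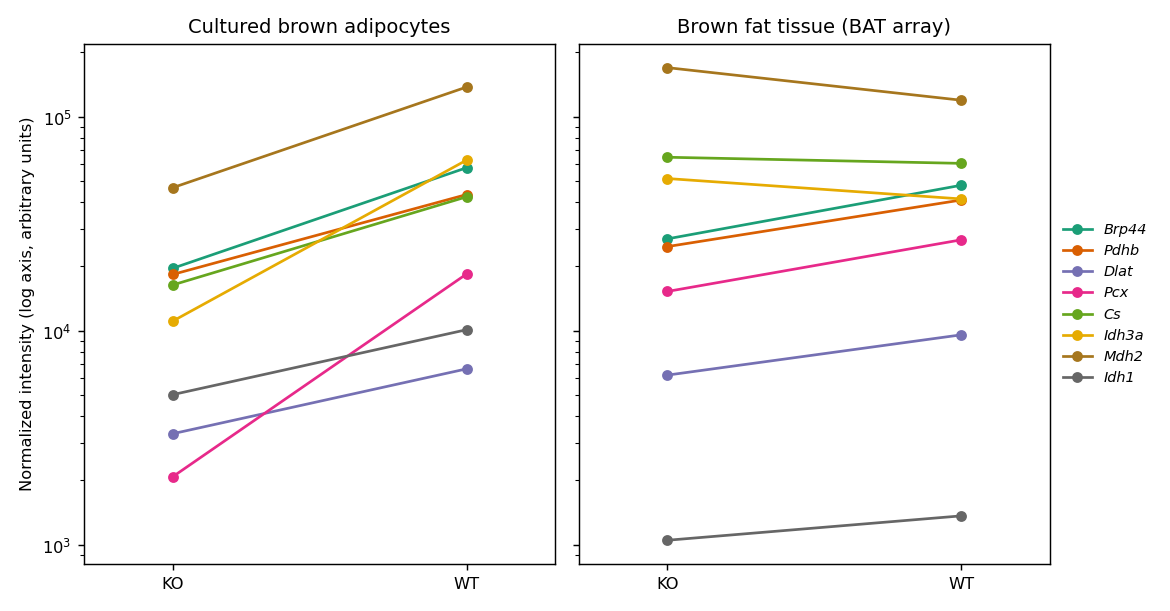
Normalized intensity (vertical log axis, arbitrary units) in KO and WT of the 8 members at least 2-fold lower in KO cells, with cultured brown adipocytes on the left and brown fat tissue on the right. Each line joins the KO and WT value of 1 gene on 1 array, with no replicates. In cultured cells each KO value lies below its WT value, and Pcx has the steepest line, with 2078 in KO and 18456 in WT. In tissue the lines of Mdh2, Cs and Idh3a slope the other way (that of Cs changed sign with the processing, from -0.08 to 0.90), and those of the other 5 run less steeply, 3 of them (Pdhb, Dlat and Idh1) turning without loess.

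Of the 12 mitochondrial enzymes of the cycle, all 12 were below 0 in cultured cells, with a median of -0.70, and 3 were at least 2-fold lower in KO. In tissue 7 of the 12 were below 0, with a median of -0.22, but 1 was below 0 without loess (median 0.41), and 6 with the brightest probe per gene (median 0.05). Citrate synthase, Cs, which joins acetyl-CoA and oxaloacetate, read 16372 in KO cells and 42303 in WT cells, a ratio of -1.37 with probes at -1.52 and -1.22. In tissue it read 64743 in KO and 60606 in WT, a mean ratio of 0.10 that averages probes of opposite sign. The dimmer Cs probe read 32769 in KO tissue and 47130 in WT tissue, a ratio of -0.52. The brighter one read 127914 in KO tissue and 77936 in WT tissue, a ratio of 0.71. The direction of Cs in tissue is therefore not settled by these probes.

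Idh3a, Idh3b and Idh3g encode the catalytic and regulatory subunits of the NAD-dependent isocitrate dehydrogenase of the cycle. Idh3a, the catalytic one, read 11086 in KO cells and 62831 in WT cells, a ratio of -2.50 or 5.67-fold lower in KO. Idh3b was at -0.75 and Idh3g at -0.83 in the same cells, so the catalytic subunit stood well below its partners. In tissue Idh3a read 51497 in KO and 41332 in WT, a ratio of 0.32. Idh3b read 37706 in KO tissue and 31526 in WT tissue, a ratio of 0.26, and Idh3g was at 0.19. All 3 subunits stayed above 0 in tissue under each alternative that measured them. With the scanner software's own ratios, however, Idh3g was at 0.007, below the all-gene median of 0.08. Without loess the lowest of the 3 subunits stood at 1.01. Each has 1 probe. That of Idh3a lies on chromosome 9 at 54632887 to 54632946, plus strand, in the array file's coordinates.

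The oxoglutarate, succinyl-CoA and fumarate steps follow. Ogdh, the decarboxylating subunit of the oxoglutarate dehydrogenase complex, was at -0.75 in cultured cells. In tissue Ogdh read 2309 in KO and 4261 in WT, a ratio of -0.88, or -0.31 without loess. Dlst, the succinyltransferase of that complex, was at -0.64 in cultured cells and -0.22 in tissue, with tissue probes from -0.52 to -0.02 and a ratio of 0.42 without loess. The succinyl-CoA ligase has an alpha subunit, Suclg1, and a GTP-forming (Suclg2) or ATP-forming (Sucla2) beta subunit. They stood at -0.60, -0.49 and -0.10 in cultured cells, in that order. In tissue Suclg1 was at -0.75, Suclg2 at -0.28 and Sucla2 at -0.25, and without loess all 3 were above 0, at 0.06, 0.23 and 0.12 in that order. The 3 tissue probes of Sucla2 spread from -0.77 to 0.12. Fumarase, Fh1, was at -0.65 in cultured cells and -0.53 in tissue, or 0.23 in tissue without loess. Idh2, the mitochondrial NADP-dependent enzyme, was at -0.24 in cultured cells and -0.23 in tissue, or 0.40 in tissue without loess.

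Mdh2, the mitochondrial malate dehydrogenase that closes the cycle, had the lowest ratio of the cycle after Idh3a in cultured cells. It read 46623 in KO cells and 137851 in WT cells, a ratio of -1.56. In tissue it read 169803 in KO and 119543 in WT, a ratio of 0.51 that ran from 0.12 to 1.39 over the alternatives. Its cytosolic counterpart Mdh1 was at -0.49 in cultured cells and -0.38 in tissue, or 0.25 in tissue without loess. Idh1, the cytosolic NADP-dependent isocitrate dehydrogenase, read 5031 in KO cells and 10125 in WT cells, a ratio of -1.01, and was at -0.38 in tissue, or 0.15 without loess. Among malate dehydrogenases the mitochondrial form thus had the lower ratio in cultured cells, and among the NADP-dependent isocitrate dehydrogenases the cytosolic form did.

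**Figure D3:**
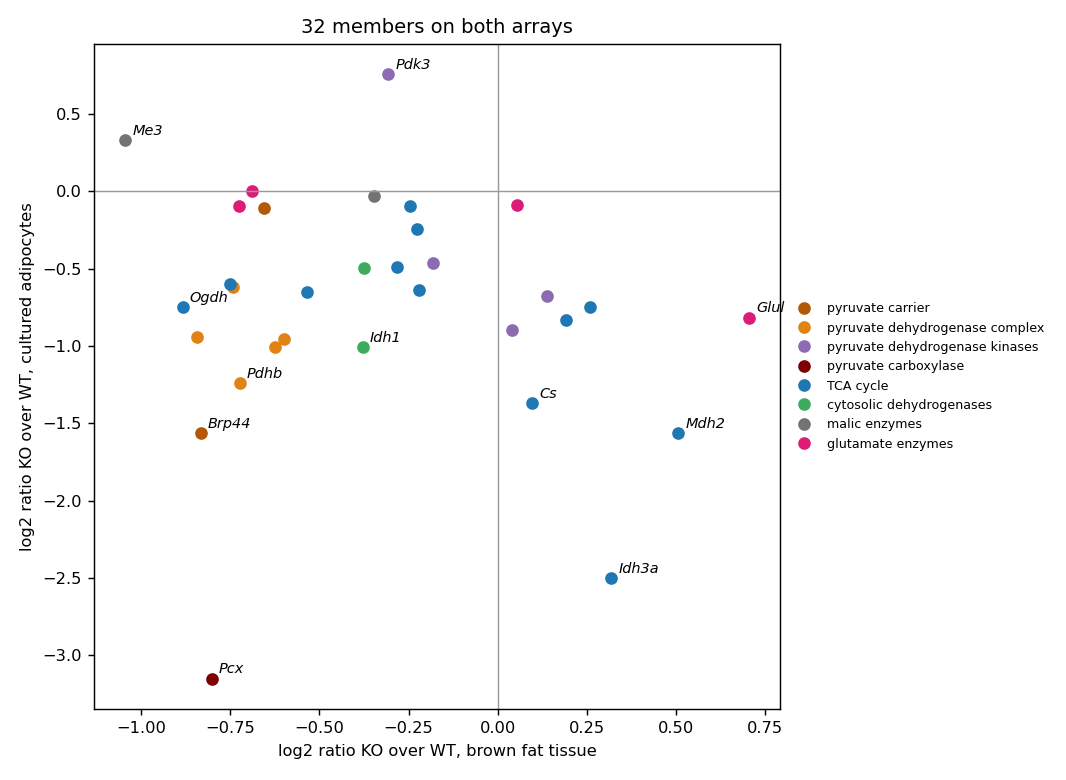
The log2 ratio of KO over WT in brown fat tissue (horizontal axis) against that in cultured brown adipocytes (vertical axis), 1 point per member, coloured by role. Of the members, 20 lie below 0 on both arrays and 9 below 0 in cultured cells alone, among them Idh3a, Mdh2 and Glul. Me3, Pdk3 and Got1 lie below 0 in tissue alone. The horizontal positions of 16 members change sign with the processing, mostly when loess is left out.

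The malic enzymes turn malate into pyruvate. Me3, a mitochondrial form, read 199 in KO tissue and 411 in WT tissue, a ratio of -1.04 from probes at -1.34 and -0.75, or -0.26 with outlier spots kept. In cultured cells it was close to background on its 1 kept probe, with 170 in KO and 135 in WT, a ratio of 0.33. Me2, the other mitochondrial form, read 3667 in KO cells and 3742 in WT cells, a ratio of -0.03, and was dim in tissue, where its ratio was -0.35. Me3 was the lowest member of tissue, but the other 2 of its 4 probes were not well above background, and with them counted no member reached a fold of 2.

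Glul, glutamine synthetase, which makes glutamine from glutamate and ammonia, was the highest member of tissue. It read 11267 in KO tissue and 6915 in WT tissue, a ratio of 0.70 with probes at 0.94 and 0.47, and it stayed above 0 under each alternative. In cultured cells its probes disagreed. The brighter one read 4425 in KO cells and 13844 in WT cells, a ratio of -1.65. The dimmer read 116 in both KO and WT cells, close to background, so the mean of -0.82 understates the brighter probe. Glud1, glutamate dehydrogenase, was at -0.09 in cultured cells and 0.05 in tissue, values near or below the SD between repeated spots. Without loess it stood at -0.51 in cultured cells and 0.74 in tissue.

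Got1 and Got2 are the cytosolic and mitochondrial aspartate aminotransferases of the malate-aspartate shuttle. Got1 read 7195 in KO cells and 7180 in WT cells, a ratio of 0.00, and Got2 was at -0.10. In tissue both were at least 1.5-fold lower, with 849 for Got1 in KO and 1369 in WT, a ratio of -0.69. Got2 read 1788 in KO tissue and 2957 in WT tissue, a ratio of -0.73. Neither was 1.5-fold lower in tissue without loess, with Got1 at -0.17 and Got2 at -0.17, or with outlier spots kept, with Got1 at -0.26 and Got2 at -0.42, though both stayed below 0.

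How the tissue ratios of pyruvate entry and of the cycle depended on the scaling was examined after the values were seen. The 8 genes of pyruvate entry (both carrier subunits, the 5 subunits of the dehydrogenase complex and Pcx) were each at least 1.5-fold lower in KO tissue, with a median of -0.73, although without loess 4 of them stood above 0 and the median was -0.03. Measured against the all-gene median, all 8 were lower in KO tissue under every alternative. The alternatives reprocess the same array, so this is not independent support. The group of 8 was also not among the planned roles. It joins the carrier, the complex and Pcx, and leaves out the Pdk kinases, which lay between -0.31 and 0.14 in tissue. The 12 cycle genes spread more widely, from Ogdh at -0.88 and Suclg1 at -0.75, as low as the entry genes, to the Idh3 subunits (median 0.26) and Mdh2 at 0.51. Measured against the all-gene median, 7 of the 12 were lower as reported and 5 without loess. Among other alternatives, 6 were lower with the brightest probe per gene, 8 with outlier spots kept and 9 with the scanner software's own ratios.

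**Figure D4:**
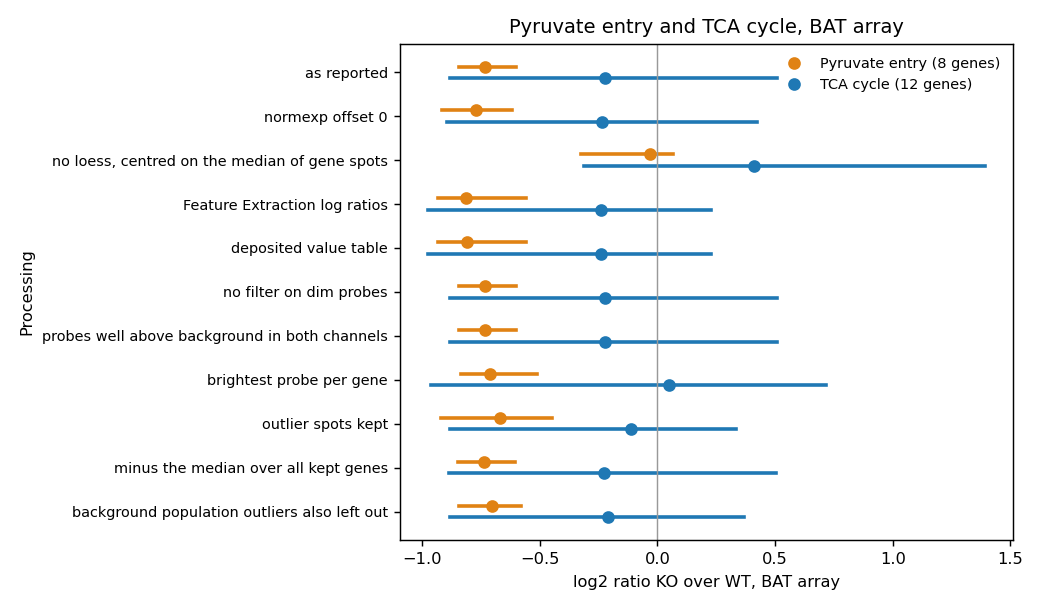
The log2 ratio of KO over WT in brown fat tissue (horizontal axis) under each way of processing (vertical axis), for the 8 genes of pyruvate entry in orange and the 12 genes of the cycle in blue (8 with background population outliers also left out). Points are medians and lines run from the lowest to the highest gene. The medians are -0.73 and -0.22 as reported and -0.03 and 0.41 without loess, and the lines overlap under each way of processing.

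Brightness moved with the ratios. Over the 53 kept member probes of the BAT array, brightness and ratio had a Pearson r of 0.28 and a Spearman rho of 0.24. Over the 51 of the cultured-cell array they were -0.34 and -0.36. These are descriptions across probes, which share an array and in part a gene. Within a gene, the brightest probe read a higher ratio than the dimmest in 11 of the 17 members with several kept probes in tissue, and in 5 of 16 in cultured cells. KO was labelled with Cy5 on the BAT array and with Cy3 on the cultured-cell array, without a dye swap, so dye and genotype cannot be told apart for any single probe.

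**Figure D5:**
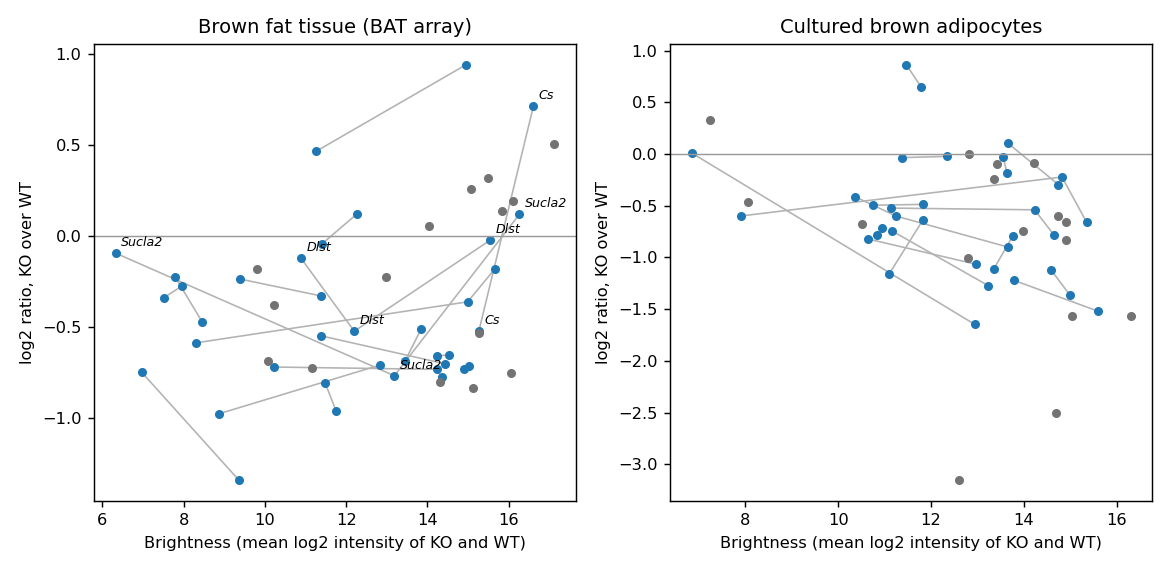
The log2 ratio of KO over WT (vertical axis) against brightness, the mean log2 intensity of KO and WT (horizontal axis), for each kept member probe, with brown fat tissue on the left and cultured brown adipocytes on the right. Lines join probes of 1 gene, and grey points are genes with 1 kept probe. In tissue the probes of Cs read -0.52 and 0.71 and those of Sucla2 from -0.77 to 0.12, with the brightest probe the highest in both genes.

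Another 35 genes of the same pathways, from a fixed list, were set beside the members. In cultured cells the median of the 32 with a kept probe was -0.43. At least 2-fold higher in KO were 0, against 2.49% of all genes. At least 2-fold lower were 6, against 4.17%. These were Acly, the citrate lyase that supplies acetyl-CoA for lipid synthesis, at -1.45, the citrate carrier Slc25a1 at -1.11, the dicarboxylate carrier Slc25a10 at -1.61, the cytosolic aconitase Aco1 at -1.01, the lactate dehydrogenase subunit Ldhb at -1.54 and Pck1. Pck1, the cytosolic phosphoenolpyruvate carboxykinase, was not well above background in KO cells and read 499 in WT cells. The highest was Pdp1, a phosphatase that reactivates pyruvate dehydrogenase, at 0.71, with 2130 in KO cells and 1300 in WT cells. In tissue 1 of 33 was at least 2-fold lower, against 2.44% of all genes, and 0 were higher, against 0.800%. The lower 1 was the cytosolic malic enzyme Me1 at -1.33, with 750 in KO and 1884 in WT. The median of the list in tissue was -0.20, and its highest member was Slc25a51, the mitochondrial NAD carrier, at 0.93.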

How the data were processed

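Per the labels' protocols, RNA was extracted with Trizol and labelled with the Agilent Low RNA Input Linear Amp Kit. The scanner intensity of each spot (mean signal and median local background) came from Agilent Feature Extraction 9.5.1.1, per the file headers, as did a log10 ratio, red over green. A value table deposited by the authors holds that log10 ratio turned to KO over WT on both arrays (largest difference 0.0165 on the log2 scale). Its medians were 0.09 (BAT array) and 0.02 (cultured-cell array) on the log2 scale, and 7623 and 6968 gene spots were null, for a reason that no source used here gives. KO was in Cy5 on the BAT array and in Cy3 on the other. A second deposited copy of each array served only as a check, and its processed signals differed by at most 0% and 0.496%.

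From the deposited intensity values, log2 ratios were computed with limma 3.58.1 in R 4.3.3 and summarised with pandas 2.3.3. Background was corrected by normexp (saddle, offset 50) and each array normalized by loess, with weight 0 for the 1639 control spots. The offset draws the ratios of dim genes towards 0. Outlier-flagged gene spots (1215 on the BAT array and 203 on the other) were left out, none of them a member's. Spots of a probe were averaged, probes well above background in at least 1 channel were kept (53 and 51 of the 55 member probes), and a gene is the mean of its kept probes. The steps were also run on simulated arrays with equal numbers of probes raised and lowered, and the outcome is not given here. The real arrays were less balanced, so that run cannot show how loess behaves on them. Members were found by the array's gene names, other genes through the RefSeq table of GRCm38.p6. All members are named, with intensities for those past 2-fold on either array and the 4 highest and 4 lowest of each. The members and lists were chosen with earlier results of these data known. Results were recomputed with 9 other settings and 1 more chosen after seeing the data. With 1 array per comparison precision is limited and no test was made.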

Additional observations from a re-analysis of the deposited data

Results flagged for a closer look

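For 6 members the tissue and cultured-cell ratios had opposite signs, each further from 0 than 2 SDs between repeated spots. Tissue minus cultured cells, on the log2 scale, was 2.82 for Idh3a, 2.07 for Mdh2, 1.52 for Glul, 1.01 for Idh3b, -1.06 for Pdk3 and -1.37 for Me3. The difference was not tested, since each material has 1 array. Idh3a, Idh3b and Mdh2 have 1 probe each. The probes of Glul disagreed in cultured cells, and Me3 was dim on both arrays and had 1 kept probe in cultured cells. Pdk3 was dim in tissue, at 191 in KO and 237 in WT.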

How the results depend on the processing

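No paired analysis was possible because each comparison has 1 array, and no replicate could be left out. Leaving out loess on the BAT array gave 0 members at least 2-fold lower in KO, 5 higher, 1 at least 1.5-fold lower and 9 higher. The members' median was then 0.13, against 0.25 over all genes. With loess left out, 5 members past 1.5-fold turned: Brp44l 0.0551, Pdha1 0.0658, Pdhb 0.0228, Dlat 0.014 and Suclg1 0.0647. On the cultured-cell array leaving it out gave 19 members at least 2-fold lower and 0 at least 1.5-fold higher. The median there was -1.07, against -0.26 over all genes. In tissue the count at least 2-fold lower was 0 with dim probes kept, and 0 with outlier spots kept, when the median was -0.23. The brightest probe per gene gave 2 members at least 1.5-fold higher. In cultured cells the deposited table and Feature Extraction's ratios each gave 2 members at least 1.5-fold higher. Over all alternatives 16 members kept their sign in tissue and 30 in cultured cells, the exceptions there being Got1 and Me2.

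Over all genes at 2-fold (lower in KO, then higher), the BAT array gave 381 and 125 as reported, 836 and 385 with offset 0, 951 and 1401 with Feature Extraction's ratios, 952 and 1397 in the deposited table, 98 and 38 with outlier spots kept, and 409 and 672 without loess. The cultured-cell array gave 631 and 377, 845 and 617 with offset 0, 956 and 876 with Feature Extraction's ratios, 954 and 874 in the deposited table, and 1246 and 194 without loess. The share of these calls that were higher in KO was, in tissue, 24.7% as reported, 59.6% with Feature Extraction's ratios and 62.2% without loess, and in cultured cells 37.4%, 47.8% and 13.5%. The alternative added after seeing the data, which also left out background population outliers, measured 28 members in tissue and 29 in cultured cells. The causes of these shifts were not tested. Ratios of dim members (Me3 on both arrays, Pdk3 and Me2 in tissue, and Pdk2 and the dimmer Glul probe in cultured cells) are limited by signal.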
